A study of Mus musculus with 34 samples.

Results

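Ptgs2 and Nos2 are the genes of 2 inducible enzymes, and they were followed as 2 of the 84 wells of a PCR array on mouse lung RNA. They were chosen by name, as the inducible enzymes of prostaglandin and nitric oxide synthesis on this array. The files give wells by position only, and both wells could be placed because published tables of group differences in these same mice list both genes, so the directions of their differences are not independent of that placement. Gene expression was measured in whole lung homogenates of 34 female C57BL/6 mice (C57BL/6J in the methods), 8 weeks of age, that breathed ozone at 2 ppm (O3) or only filtered air (FA) for 3 h, and the methods place lung collection 4 h after exposure. The mice were grouped by exposure and by stage of the estrous cycle. There were 6 FA and 5 O3 mice in proestrus, 6 FA and 3 O3 mice in estrus, 4 FA and 3 O3 mice in metestrus, and 4 FA and 3 O3 mice in diestrus. Proestrus and estrus form the follicular phase (12 FA and 8 O3 mice), and metestrus and diestrus form the luteal phase (8 FA and 6 O3 mice). Every sample was 1 animal. No transgene, deletion or drug was given to any group, and the FA mice are the controls.

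Ptgs2 encodes cyclooxygenase-2, the inducible enzyme that turns arachidonic acid into prostaglandin H2, the precursor of the prostaglandins and thromboxane. Nos2 encodes inducible nitric oxide synthase, which makes nitric oxide from arginine and is a classical product of activated macrophages and of epithelium in the inflamed lung. Both are textbook targets of NF-kB, the transcription factor that Toll-like receptors and the interleukin-1 receptor activate.

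According to the RefSeq annotation of the build GRCm38.p6, Ptgs2 lies on chromosome 1 from 150100031 to 150108234 and Nos2 on chromosome 11 from 78920787 to 78960226. The RefSeq promoter table matched 1 of the 2 genes, Ptgs2. Its stretch chr1:150099781-150100060, on the plus strand, is shown because it holds the start of the gene whose level rose after O3. It covers 250 bases before the annotated start and 30 bases from it on, and the capitals mark a CRE core and an E-box that share 2 bases.
Ptgs2 promoter: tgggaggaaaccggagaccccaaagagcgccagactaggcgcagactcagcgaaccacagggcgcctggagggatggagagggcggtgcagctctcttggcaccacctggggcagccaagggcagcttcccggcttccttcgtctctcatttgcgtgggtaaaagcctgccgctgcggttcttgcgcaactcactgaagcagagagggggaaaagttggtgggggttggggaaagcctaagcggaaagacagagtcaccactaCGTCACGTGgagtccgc
Motifs were searched on both strands over the 300 bases of the table. The CRE core (TGACG, here read as CGTCA on the plus strand) was found at bases 14 to 18 counted from the annotated start as 1, and 20.9% of the 32544 promoters in the table hold it. The E-box (CACGTG) was found at bases 17 to 22, and 7.17% of the promoters hold it. No match was found in this window for the TATA box (TATAAA, in 13.6% of the promoters), the full CRE (TGACGTCA, 1.801%), AP-1 (TGANTCA, 7.79%) or the NF-kB site (8.49%).

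Levels are given as -ΔCt, the mean threshold cycle (Ct) of the 4 reference wells minus the Ct of the gene, so that a rise of 1 is a doubling and higher values mean more mRNA. Ptgs2 had a Ct in all 34 mice, from 24.5 to 30.4 cycles. Nos2 had a Ct in 33 mice, from 28.2 to 32.9 cycles, and no Ct in O3 diestrus replicate 2, which received a Ct of 40. That mouse also had the highest Ptgs2 Ct of the 14 O3 mice, 29.1 cycles. Its wells ran late in general. Its mean Ct was the highest of the O3 mice for the reference wells (22.4 cycles) and for 55 array wells (29.0 cycles). Why its Nos2 well had no Ct was not tested. The differences of Nos2 between O3 and FA are therefore given with and without that assigned value. Reference wells averaged 20.8 cycles in both exposures (SD 1.18 over 20 FA mice, and 0.852 over 14 O3 mice). The number of decimals of the deposited Ct values differed between mice, with 22 mice at 3 decimals, 8 at 6 and 4 at more, and all 6 O3 luteal mice were at 3. The 4 mice with more decimals are those numbered 31 to 34 in the labels. In 3 of them, the control wells H10 to H12 averaged 23.1 to 27.5 cycles, against 19.0 to 21.3 in the 30 mice with other numbers. The named wells hold no gene that marks lung epithelium, so the tissue label was not checked against one.

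Ptgs2 was higher after O3 than after FA. Over the mean of the 4 stages, its level rose by 2.10 on the log2 scale (SE 0.255), a 4.29-fold difference with a 95% confidence interval of 2.98 to 6.16-fold (limma, adjusted p = 1.52e-07 over the 84 wells). Nos2 fell in the same comparison, by 1.87 on the log2 scale (SE 0.446), which is 3.66-fold lower (interval 1.94 to 6.89-fold, limma, adjusted p = 0.00128). With the well without a Ct left out, Nos2 fell by 1.28 (SE 0.235), 2.43-fold lower (log2 interval -1.76 to -0.80, limma, adjusted p = 4.57e-05). In this comparison, 33.3% of the 84 wells passed FDR 0.05 in either direction, 23.8% as higher and 9.52% as lower (20 and 8 wells). With the mean Ct of 55 array wells as the reference in place of the 4 reference wells, 18 wells were higher and 20 lower. Ptgs2 had the 8th highest difference of the 84 wells and Nos2 the 2nd lowest. With the wells without a Ct left out, Nos2 had the 3rd lowest of 78 wells.

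**Figure D1:**
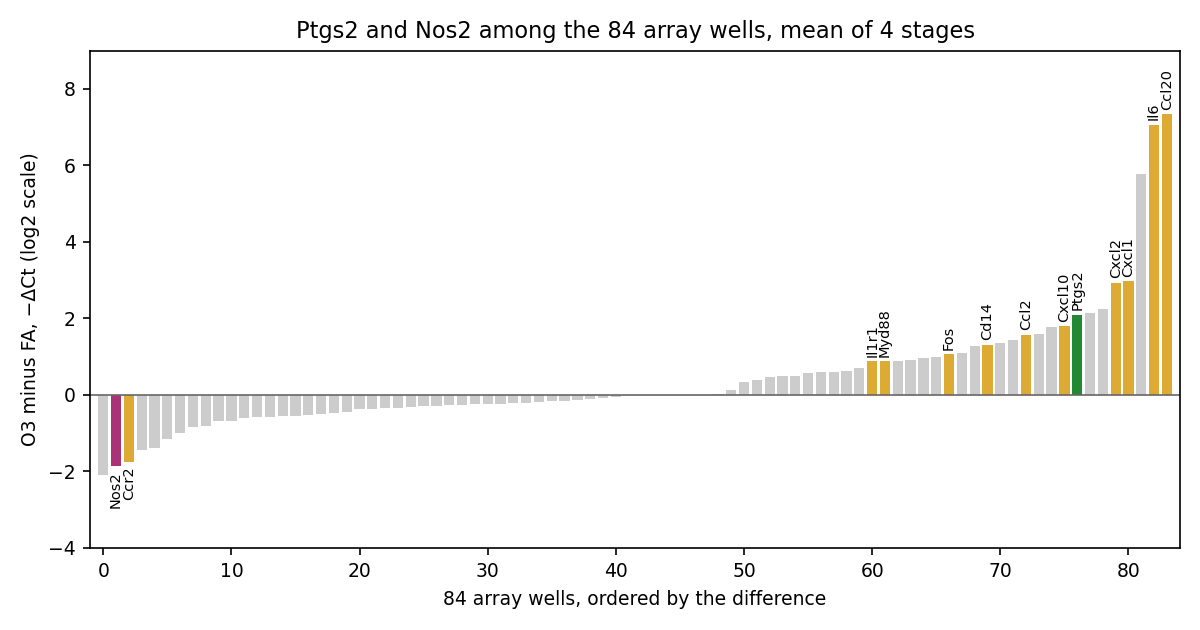
Difference between O3 and FA mice (log2 scale, mean of 4 stages) of each of the 84 array wells, in order of size, with Ptgs2 in green, Nos2 in purple and the genes of the 3 lists described in the text in yellow. Ptgs2 stands at 2.10 on the right, below Cxcl1, Cxcl2, Il6 and Ccl20, and Nos2 stands at -1.87 on the left beside Ccr2.

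In whole-lung RNA, more or fewer cells of one type and more or less mRNA per cell cannot be told apart. The 20 named wells hold 2 genes fixed as markers of monocytes and macrophages, and they went opposite ways. Ccr2, the receptor that draws monocytes from blood, fell by 1.75 (limma, adjusted p = 1.01e-05), from a -ΔCt of -6.87 ± 0.846 (SD, n = 20) in FA mice to -8.49 ± 0.745 (SD, n = 14) in O3 mice. Cd14, the lipopolysaccharide co-receptor of monocytes and macrophages, rose by 1.30 (limma, adjusted p = 0.000397), from -5.14 ± 0.726 (SD, n = 20) to -3.76 ± 0.991 (SD, n = 14). Both had a Ct in every mouse. Their summed level, as 1000 times 2 to the power of -ΔCt, ranged from 19.0 to 125 in FA mice and from 14.0 to 300 in O3 mice. Their part in the Ptgs2 and Nos2 differences was not tested.

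Among the mice in proestrus, the Ptgs2 level in FA lungs was -8.77 at the lowest, -7.56 at the median and -5.57 at the highest (n = 6). In the 5 O3 lungs it was -4.66, -4.93, -4.90, -5.35 and -5.03. Every O3 mouse was above every FA mouse, and the FA mouse nearest to them was replicate 1, which is among the mice numbered 31 to 34. The difference was 2.50 (SE 0.433, limma, adjusted p = 0.000141), where 14.3% of wells passed. The groups did not overlap in 13.1% of the 84 wells at this stage.

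In estrus, the FA mice had Ptgs2 levels of -7.72 at the lowest, -7.43 at the median and -6.87 at the highest (n = 6), and the 3 O3 mice had -3.83, -5.70 and -4.80. All 3 O3 mice were again above all FA mice, by a wide margin, and they differed among themselves more than the FA mice did (SD 0.933 against 0.342). The rise was 2.59 (SE 0.506, limma, adjusted p = 0.000800), with 14.3% of wells called and 17.9% not overlapping.

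The metestrus mice had Ptgs2 levels of -7.82, -7.16, -6.99 and -6.59 after FA, and of -4.82, -4.99 and -4.75 after O3. The O3 mice were all above the FA mice and stood close together, with an SD of 0.122. The rise was 2.29 (SE 0.547, limma, adjusted p = 0.0106), with 7.14% of wells called and 29.8% not overlapping. Without O3 metestrus replicate 1 the adjusted p was 0.0527 at a difference of 2.27.

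Diestrus was the stage where the Ptgs2 ranges met. The FA mice stood at -7.05, -6.45, -6.92 and -6.42, and the O3 mice at -5.78, -6.69 and -4.60. O3 diestrus replicate 2, the mouse without a Nos2 Ct, lay among the FA mice, and the other 2 lay above them. The difference of 1.02 (SE 0.547, 95% interval -0.10 to 2.14) did not pass (limma, adjusted p = 0.253), where 11.9% of wells did and 15.5% did not overlap. It was 0.47 without O3 diestrus replicate 3 and 1.52 without O3 diestrus replicate 2, and it passed in none of the 34 fits that each left out 1 mouse. With the number of decimals as a term of the model it was 1.53 (adjusted p = 0.0471).

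**Figure D2:**
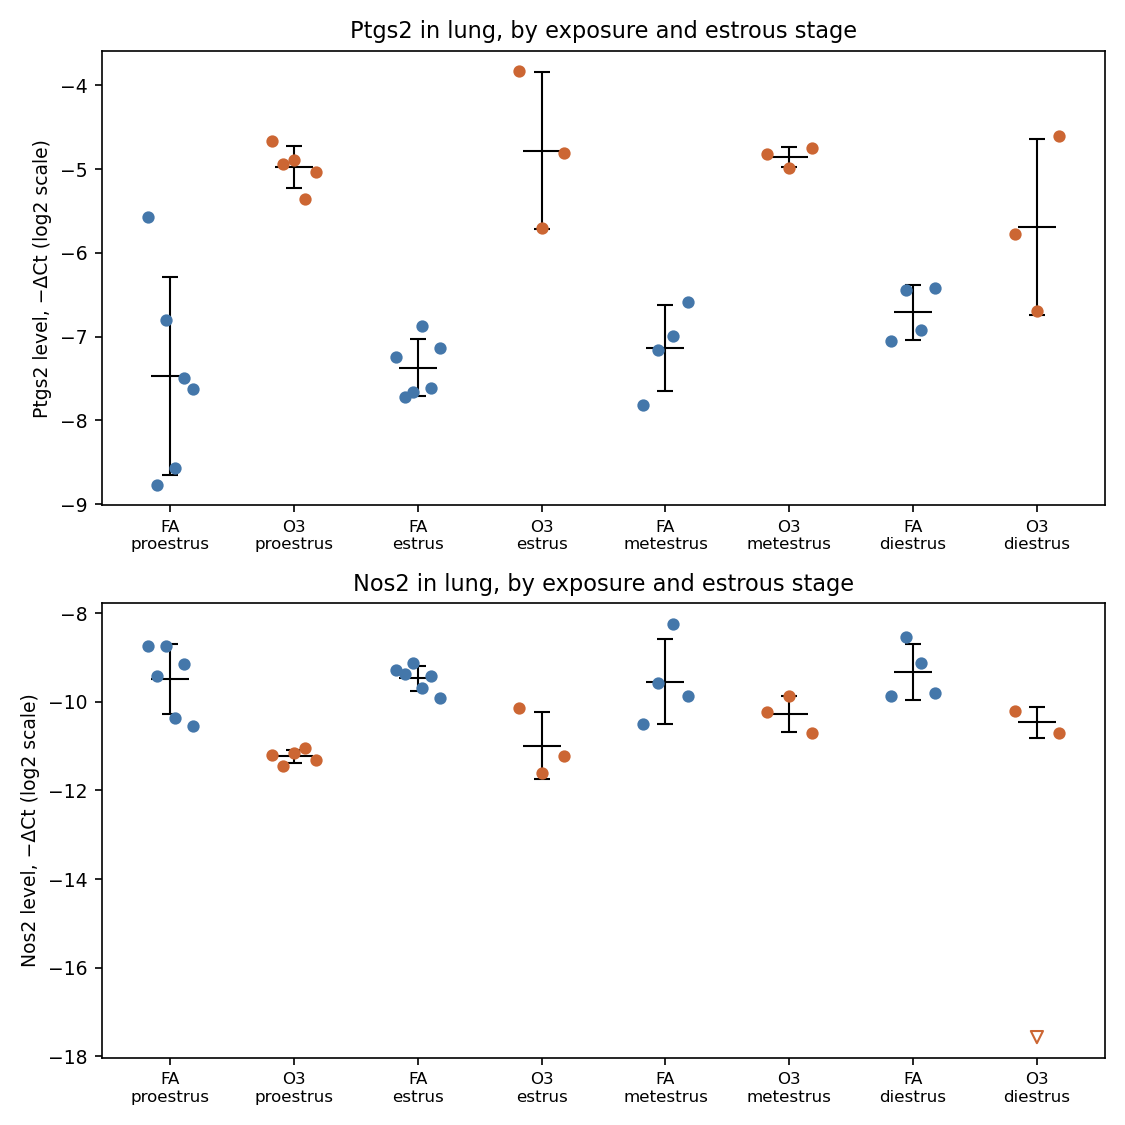
Ptgs2 (top) and Nos2 (bottom) as -ΔCt on a log2 scale in each mouse of the 8 groups, FA in blue and O3 in orange, with the group mean and SD in black. The open triangle is the Nos2 value assigned to the O3 diestrus mouse with no Ct (-17.6), which the drawn mean and SD leave out; Ptgs2 is higher after O3 without overlap in proestrus, estrus and metestrus.

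The Nos2 level in proestrus was -10.55 at the lowest, -9.28 at the median and -8.74 at the highest in FA mice (n = 6). In the 5 O3 mice it was -11.20, -11.45, -11.16, -11.05 and -11.31. All O3 mice lay below all FA mice and kept within a narrow band (SD 0.155 against 0.792). At this stage the groups did not overlap in 13.1% of the 84 wells. The difference of -1.74 (SE 0.758) had an adjusted p of 0.138 with the assigned value in the fit, whose spread all groups share, and of 0.00105 with it left out (SE 0.384, limma). With assigned values 14.3% of wells passed, and 13 of 83 did with wells without a Ct left out.

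In estrus, Nos2 stood at -9.91 at the lowest, -9.41 at the median and -9.13 at the highest in FA mice (n = 6), and at -10.15, -11.61 and -11.23 in the 3 O3 mice. The O3 mice were all lower, replicate 1 by a small margin, where 17.9% of the 84 wells did not overlap. The difference of -1.53 (SE 0.885) had an adjusted p of 0.349 with the assigned value and of 0.0121 without it (SE 0.449, limma). Here 14.3% of wells passed with assigned values, and 14 of 81 without them.

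In metestrus the Nos2 ranges overlapped. The levels were -10.50, -9.58, -8.24 and -9.86 after FA and -10.24, -9.88 and -10.71 after O3, so that the O3 mouse was lower in 10 of the 12 pairs of mice. The difference of -0.73 did not pass with the assigned value (limma, adjusted p = 0.716, interval -2.69 to 1.23) or without it (adjusted p = 0.384, interval -1.72 to 0.26). It was -0.30 without FA metestrus replicate 3 and -1.05 without FA metestrus replicate 1, and it passed in none of the 34 fits that each left out 1 mouse.

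In diestrus, the FA mice had Nos2 levels of -9.88, -8.54, -9.13 and -9.80. The O3 mice had -10.22 and -10.71, and the third had no Ct. The 2 measured O3 mice were below the FA mice, and the third was so only through its assigned value. At this stage 15.5% of the 84 wells did not overlap, with assigned values included. The difference of -3.50 (limma, adjusted p = 0.0144) rested on the assigned value of -17.57, and from the 2 measured mice it was -1.13 (adjusted p = 0.189, interval -2.25 to -0.01). Of all wells, 11.9% passed with assigned values, and 13 of 81 did without them.

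The order of the 8 groups by mean Ptgs2 level ran from O3 estrus (-4.78) through O3 metestrus (-4.85), O3 proestrus (-4.98) and O3 diestrus (-5.69) to FA diestrus (-6.71), FA metestrus (-7.14), FA estrus (-7.37) and FA proestrus (-7.47). All 4 O3 groups came before all 4 FA groups, and the ranges of each neighbouring pair overlapped. For Nos2 the order was the other way about, with FA diestrus (-9.34), FA estrus (-9.47), FA proestrus (-9.50) and FA metestrus (-9.55) before O3 metestrus (-10.28), O3 diestrus (-10.46 over the 2 mice with a Ct), O3 estrus (-11.00) and O3 proestrus (-11.23). Here too every neighbouring pair overlapped. The 4 FA means of Nos2 lay from -9.55 to -9.34, a narrow range beside the SDs of 0.283 to 0.950 within those groups.

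Neither gene was shown to vary with the stage within an exposure. Over the 4 stages of the FA mice, limma's F was 1.03 for Ptgs2 and 0.0211 for Nos2 (adjusted p = 0.996 for both). No well passed there (0%), and 3 did at an unadjusted p under 0.05. Over the 4 stages of the O3 mice, F was 1.04 for Ptgs2 (adjusted p = 0.655) and 2.23 for Nos2 (adjusted p = 0.447), and 2.38% of wells passed. With the assigned value left out, the F of Nos2 was 0.0821 in the FA mice (adjusted p = 0.981) and 1.69 in the O3 mice (adjusted p = 0.493).

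With the stages joined into phases, Ptgs2 rose in both. In the follicular phase the rise was 2.52 (limma, adjusted p = 2.32e-07, 5.74-fold), with 22.6% of wells called, and in the luteal phase it was 1.65 (adjusted p = 0.00178, 3.15-fold), with 21.4% of wells called. Nos2 fell by 1.66 in the follicular phase (limma, adjusted p = 0.0392). That call was lost in 9 of the 34 fits that each left out 1 mouse. With the assigned value left out, the same difference had an adjusted p of 8.54e-06 and was lost in none of them. In the luteal phase Nos2 fell by 2.11 (adjusted p = 0.0296), and by 0.91 without the assigned value (adjusted p = 0.0479). The luteal call for Nos2 was lost when O3 diestrus replicate 2 was removed altogether (adjusted p = 0.0639) and when FA metestrus replicate 3 was (0.0501). With the assigned value left out, it held in 14 of the 34 fits that each left out 1 further mouse.

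Whether the response to O3 differed between phases or stages was tested directly. The Ptgs2 rise was 0.87 larger in the follicular phase, with an interval from -0.15 to 1.88 (limma, adjusted p = 0.318). For Nos2 the difference between phases was 0.45 (interval -1.41 to 2.32, adjusted p = 0.821), and it turned to -0.75 (interval -1.65 to 0.15, adjusted p = 0.274) with the assigned value left out. Over the 4 stages, the F of the interaction was 1.91 for Ptgs2 (adjusted p = 0.719) and 1.50 for Nos2 (adjusted p = 0.763), or 0.979 for Nos2 with the assigned value left out (adjusted p = 0.827). With a Ct of 40 assigned, no well passed in either interaction (0%), while 19 wells had an unadjusted p under 0.05 by phase and 6 by stage. These intervals leave room for a difference between the phases of over 1 on the log2 scale for both genes.

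**Figure D3:**
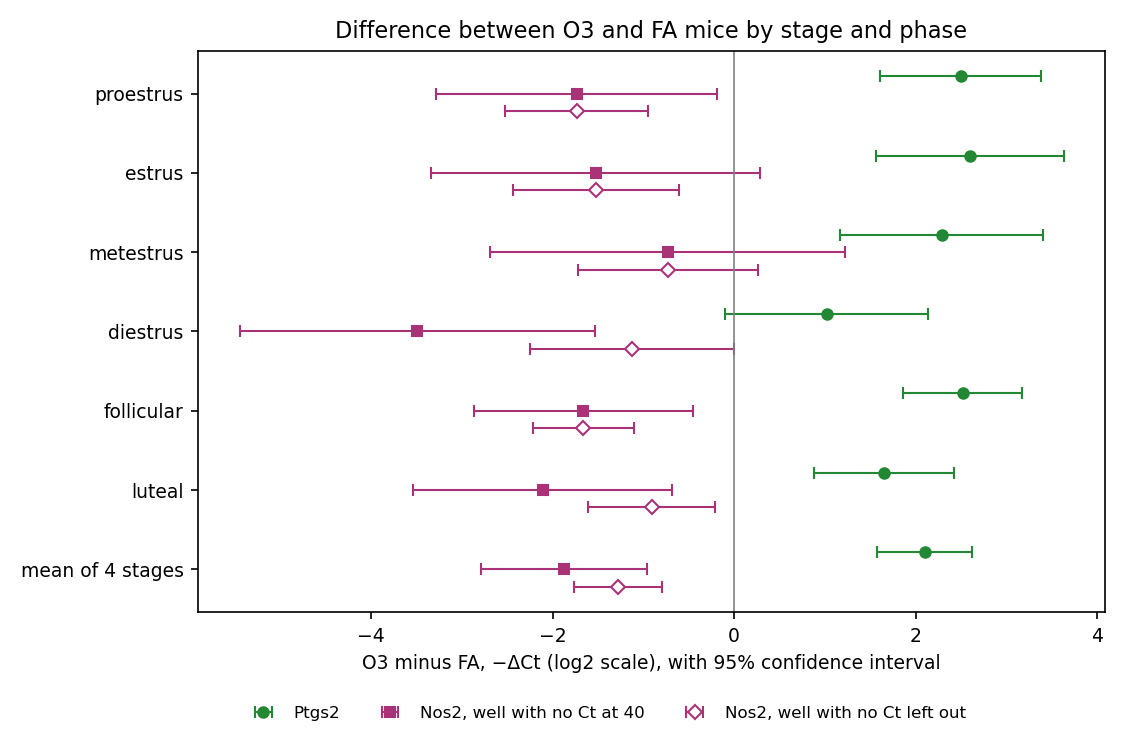
Difference between O3 and FA mice in -ΔCt (log2 scale) with its 95% confidence interval from limma, by stage, by phase and over the mean of 4 stages, for Ptgs2 (green) and for Nos2 with the well without a Ct at 40 (filled purple) or left out (open). The estimates lie right of 0 for Ptgs2 and left of 0 for Nos2 throughout, and the Nos2 intervals shorten when the assigned value is left out. Intervals cross 0 for Ptgs2 in diestrus, for Nos2 at 40 in estrus, and for Nos2 either way in metestrus.

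Taking all stages together, 11 of the 14 O3 mice had a Ptgs2 level above every FA mouse, and an O3 mouse was higher in 274 of the 280 pairs of mice. For Nos2, 10 of the 14 O3 mice were below every FA mouse, and an O3 mouse was lower in 267 of the 280 pairs. These counts include the mouse given a Ct of 40, and without it they were 9 of 13 mice and 247 of 260 pairs. Neither gene alone separated the exposures. Only 1.19% of the 84 wells did so over all mice, 8.33% in the follicular phase and 4.76% in the luteal phase, and the members were not among them.

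The comparison of both wells within a mouse needs no reference gene, because the reference Ct cancels. The Nos2 Ct minus the Ptgs2 Ct was 0.644 at the lowest, 2.15 at the median and 3.38 at the highest in the 20 FA mice. In the 14 O3 mice it was 4.44 at the lowest, 6.19 at the median and 10.9 at the highest, or 6.54 at the highest with the mouse without a Nos2 Ct left out. No O3 mouse overlapped with an FA mouse, and 1.07 cycles, a 2.10-fold step, lay between the highest FA and the lowest O3 mouse. Of the 1711 pairs among the 59 wells with a Ct in every mouse or, for Nos2, in all but 1, 1.40% separated the exposures in this way. Ptgs2 took part in 11 of these 24 pairs and Nos2 in 5. The size of the difference within one mouse also depends on how well each primer pair amplifies, so that only its change between groups is read here.

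The difference within the mouse was larger after O3 by 3.97 cycles over the mean of the 4 stages, that is 15.7-fold (permutation test within stages with 100000 resamples, two-sided p = 1e-05, the smallest it can give). It was 3.51 cycles with the mouse without a Nos2 Ct left out (permutation p = 1e-05). This change is the Ptgs2 rise plus the Nos2 fall given above, with the reference Ct cancelled, so it is not independent of those differences. In the follicular phase the change was 4.18 cycles (exact permutation test, p = 1.59e-05, 8 O3 against 12 FA mice), and in the luteal phase 3.77 cycles (exact p = 0.000666, 6 against 8), or 2.85 cycles (exact p = 0.00155) without that mouse. Each exact p is the smallest that its numbers of mice can give, because the groups did not overlap. These p-values therefore do not rank the phases. By stage, without a test, the change was 4.23 cycles in proestrus, 4.12 in estrus, 3.02 in metestrus and 4.52 in diestrus. The diestrus value rested on the mouse given a Ct of 40 for Nos2, and without that mouse it was 2.65 cycles, below the other 3 stages (2 O3 against 4 FA mice). The O3 mouse had the larger difference in all 30, 18, 12 and 12 pairs of mice of these stages. With the mouse given a Ct of 40 left out, it did in all 8 pairs of diestrus. In the 5 O3 mice in proestrus, the values were 6.54, 6.52, 6.26, 5.69 and 6.28, and in O3 estrus 6.32, 5.91 and 6.43, while O3 metestrus stood at 5.42, 4.89 and 5.96 and the O3 diestrus mice with a Ct at 4.44 and 6.11.

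**Figure D4:**
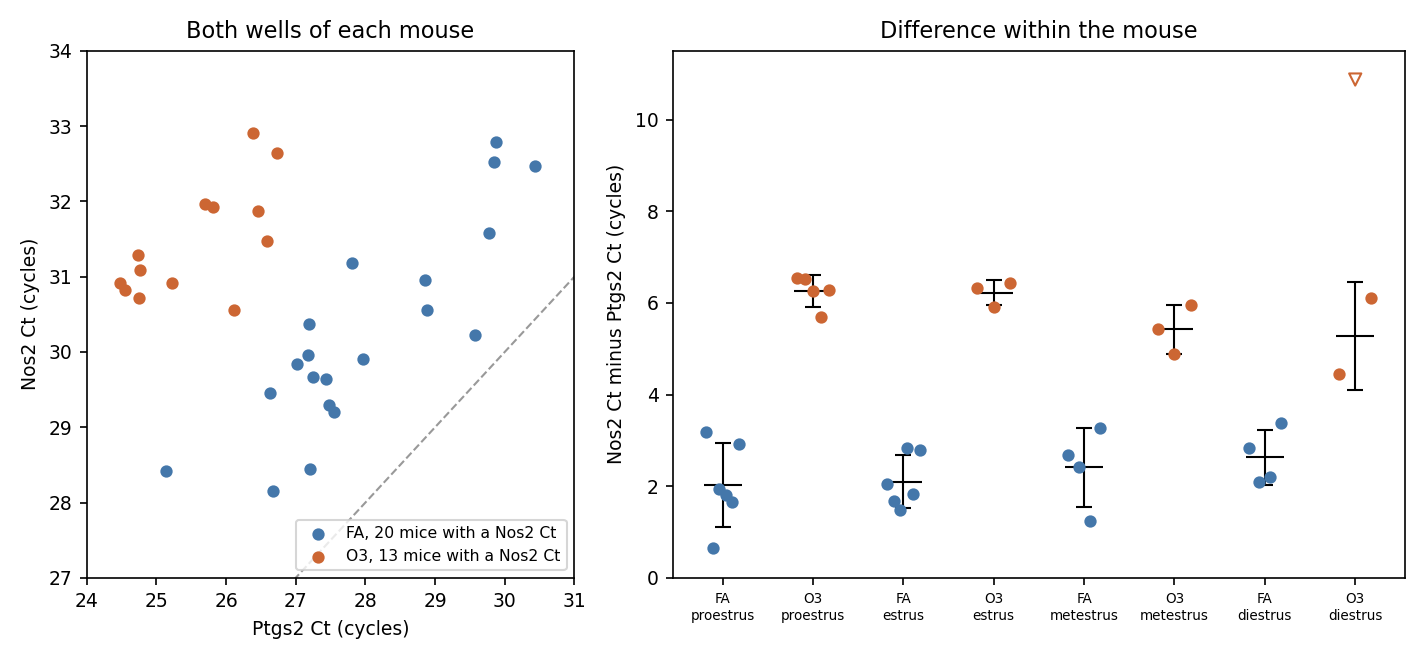
Left, the Ct of Nos2 against the Ct of Ptgs2 in the 33 mice with both, in cycles, with equal Ct as a dashed line; right, Nos2 Ct minus Ptgs2 Ct in each mouse by group, with mean and SD and, as an open triangle, the O3 diestrus mouse given a Nos2 Ct of 40. FA mice (blue) end at 3.38 cycles and O3 mice (orange) begin at 4.44.

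Mouse by mouse within the O3 group, a relation of both genes passed by Pearson's r only. It rested on few mice and on the assigned Nos2 value. Deviations of -ΔCt from the stage mean were compared within each exposure. Over the 20 FA mice, Pearson's r of these deviations was 0.43 (permutation p = 0.0552, adjusted over the 2 relations 0.0552) and Spearman's rho was 0.35 (permutation p = 0.127). After leaving out the 2 mice farthest from the median of Ptgs2, r was 0.44. Over the 14 O3 mice, r was 0.66 (permutation p = 0.0115, adjusted 0.0229) and rho was 0.37 (p = 0.196). The relation did not hold without those mice, since r was -0.29 without the 2 farthest mice and 0.43 (permutation p = 0.141) without the assigned Nos2 value. Both genes share the reference Ct of the mouse in these values. With the mean Ct of the array wells as the reference, r was 0.68 in the O3 mice (permutation p = 0.0139, adjusted 0.0278). Their rho was then 0.55 (permutation p = 0.0459, adjusted 0.0918). Both values include the assigned Nos2 value, and this reference was not tested without it. With the reference wells, rho was 0.0055 once that value was left out (permutation p = 0.993). In the FA mice, r was 0.23 with the array wells as the reference (permutation p = 0.325).

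Of 4 genes that lie upstream of both enzymes, all 4 rose over the mean of the 4 stages, with a median difference of 0.97 against -0.02 over all 84 wells, of which 23.8% were called higher. Cd14 rose by 1.30, Fos, a subunit of AP-1, by 1.06 (limma, adjusted p = 0.00103), Myd88, the adaptor of Toll-like and interleukin-1 receptors, by 0.88 (adjusted p = 0.0257), and Il1r1, the interleukin-1 receptor, by 0.87 (adjusted p = 0.000371). In the follicular phase 3 of the 4 passed, where 22.6% of wells did in either direction, and in the luteal phase 2 did, where 21.4% of wells did. The second list holds 6 cytokines and chemokines that NF-kB induces, and all 6 rose, with a median of 2.95. Ccl20, which draws Ccr6-bearing dendritic and T cells, rose by 7.34 (limma, adjusted p = 4.73e-08) and Il6, the acute-phase cytokine, by 7.07 (adjusted p = 1.09e-08). These had no Ct in 3 and 12 mice and Cxcl1 had none in 2, so that their sizes depend on the assigned Ct. The neutrophil chemokines Cxcl1 and Cxcl2 rose by 2.97 and 2.93, the interferon-inducible Cxcl10 by 1.798 and the monocyte chemokine Ccl2 by 1.57. All 6 passed in the follicular phase and 3 in the luteal phase. The wells of all 10 genes of both lists could be named because published tables list them as higher after O3 in these same mice, so their direction and these counts are no independent evidence.

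Over the 8 group means, the 3 named genes whose pattern was most like that of Ptgs2 were Fos (r = 0.97), Il1r1 (r = 0.95) and Il6 (r = 0.95), among the 19 other named wells. For Nos2 the 3 highest r were those of Ccr2 (r = 0.85), Ltb (r = 0.44), the gene of lymphotoxin beta, and Ccl7 (r = -0.28). With the assigned value left out they were those of Ltb (r = 0.86), Ccr2 (r = 0.77) and Myd88 (r = -0.48). Only Ccr2 and Ltb had a positive r with Nos2, so Ccl7 and Myd88 were not like it. Ccr2, Ltb and Nos2 were the 3 named wells that were lower after O3, Ltb by 0.68 (limma, adjusted p = 0.0244). These values describe 8 means that share the O3 and FA split and the reference wells.

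The reference wells set the size of each -ΔCt. With each of the 4 reference wells alone, or with the mean Ct of 55 array wells, Ptgs2 rose by 1.85 to 2.36 over the mean of the 4 stages and passed under all 5. Nos2 fell by 1.61 to 2.12 and passed under all 5. Relative to the array wells, the mean of the 4 reference wells came 0.39 cycles later in O3 than in FA mice in the follicular phase and 0.07 cycles later in the luteal phase, which is the shift that this choice gives to every well. With the assigned value left out, it fell by 1.02 to 1.53 and passed under 4 of the 5, the exception being H2 alone (adjusted p = 0.115). H2 had a Ct of 23.9 in O3 estrus replicate 1 and, relative to the mean of the array wells, an SD of 1.83 over the 8 O3 follicular mice, against 0.216 to 0.319 for the other 3 wells. With H2 alone, the Ptgs2 rise missed the threshold in proestrus (2.25, limma, adjusted p = 0.0532), metestrus (2.70, adjusted p = 0.117) and the luteal phase (1.799, adjusted p = 0.112), at sizes close to those with all 4 wells. Within the 22 mice with 3 decimals, Ptgs2 rose by 2.05 (limma, adjusted p = 4.82e-05) and Nos2 fell by 2.03 (adjusted p = 0.0342), or by 1.44 (adjusted p = 0.000131) with the assigned value left out. Among the 8 mice with 6 decimals, which hold O3 mice of the follicular phase only, Ptgs2 rose by 2.73 (adjusted p = 0.00587) and Nos2 fell by 1.32 (adjusted p = 0.0412) in that phase.

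**Figure D5:**
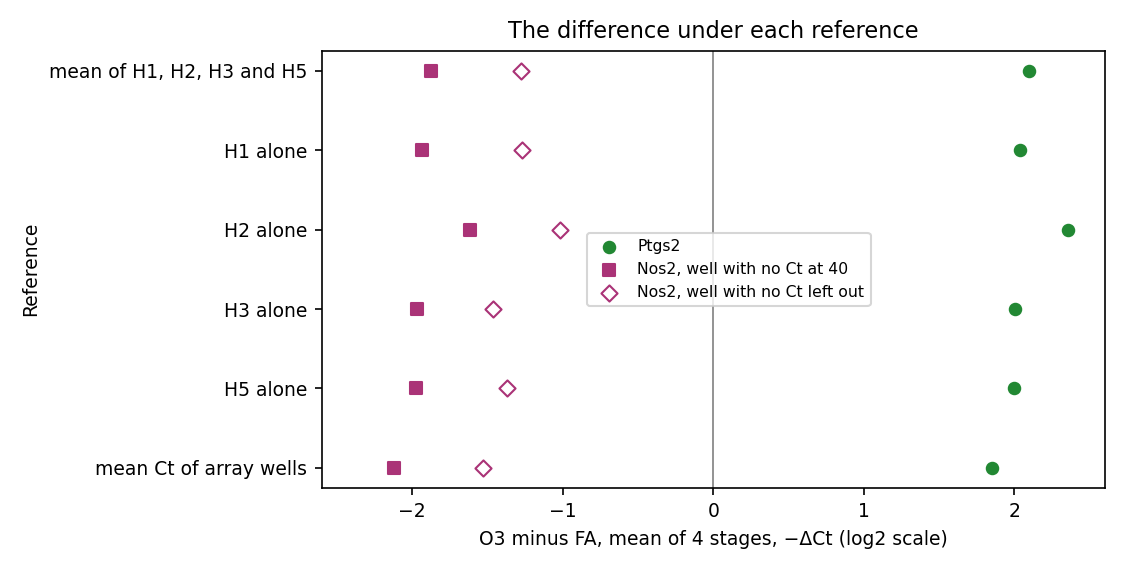
Difference between O3 and FA mice over the mean of 4 stages (log2 scale) with 6 choices of reference on the vertical axis, for Ptgs2 (green) and for Nos2 with the well without a Ct at 40 (filled purple) or left out (open). Ptgs2 stays between 1.85 and 2.36, and Nos2 between -2.12 and -1.61 or, with that well left out, between -1.53 and -1.02.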

How the data were processed

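Lung RNA was reverse transcribed (400 ng), run on a real-time PCR array of 84 genes, and the authors deposited threshold cycles (Ct, in cycles, not normalized) for each of 34 mice. The authors also deposited fold changes (ratio, linear scale) against 1 control mouse, with 4 endogenous controls. All 3026 of them (100%) were recovered from the Ct values when H1, H2, H3 and H5 served as reference wells, an empty well counted as a Ct of 36, and FA diestrus replicate 1 was the calibrator. Thresholds and software version were not given in the sources used here, and no molecule counts underlie a Ct, so no counting interval is given.

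The files name wells by position. Ptgs2 (F10) and Nos2 (F8) were matched through published group differences, as were 17 of the 20 named wells, each to exactly 1 well; 3 came from a published heatmap, and 64 wells stay unnamed. Members, gene lists and tests were chosen with earlier results of these data known, and no pattern already seen counts as independent support. Named genes were both members, 2 lists of pathway genes, 2 markers and, for each member, the 3 named wells with the highest r of the group means.

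-ΔCt was the mean Ct of these 4 reference wells less that of the gene, and 40 was assigned where no Ct was read (8.30% of 2856 array values). It was fitted with limma 3.58.1 in R 4.3.3 over 8 groups of exposure and stage, or 4 of exposure and phase, and p-values were adjusted by Benjamini-Hochberg over the 84 wells (FDR under 0.05). Adjusted p-values are limma's, and every test was two-sided. Exact permutation tests used scipy 1.17.1, resampled ones numpy 2.4.6, tables pandas 2.3.3 and plots matplotlib 3.10.9, in Python 3.11.15. The fit was tested on simulated data. Promoters were taken from RefSeq (GRCm38.p6). Alternatives changed the reference wells, the value for wells with no Ct, the filter on low wells, the mice, the unit, the variance model, the Ct number format and the replicate block. The fits on the 6-decimal mice, and those that joined leaving the well with no Ct missing with another change, were chosen after seeing the data.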

Additional observations from a re-analysis of the deposited data

Results flagged for a closer look

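In 3 of the 24 combinations of group and quantity, 1 mouse stood far from the others of its group. The combinations share mice and an assigned value, so this count is not set against a chance rate. Nos2 in the O3 follicular mice was -10.15 in O3 estrus replicate 1, against -11.61 to -11.05 in the others. That mouse is 1 of those numbered 31 to 34 and the one whose reference well H2 stood apart. Nos2 in the O3 luteal mice was -17.57 in O3 diestrus replicate 2, the assigned value of the well with no Ct, against -10.71 to -9.88 in the others. The same mouse and the same assigned value gave the Ptgs2 minus Nos2 difference of 10.9 cycles in that group, against 4.44 to 6.11 in the others.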

How the results depend on the processing

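Ptgs2 over the mean of 4 stages, Nos2 over the mean of 4 stages, and the Ptgs2 rise in the follicular phase kept direction and call under every alternative that changed 1 choice and without each mouse in turn. The within-mouse tests did too. With H2 as the only reference, calls were lost for Ptgs2 in proestrus (2.25, adjusted p = 0.0532), metestrus (2.70) and the luteal phase (1.799), and for Nos2 in diestrus (-3.62), the follicular (-1.45) and the luteal phase (-1.97), and, with the well with no Ct also left out, over the mean of 4 stages (-1.02), in the follicular (-1.45) and the luteal phase (-0.77; with H3 alone -1.06, with H5 alone -0.88). Nos2 in the follicular phase also missed the threshold with H1 alone (-1.58), with the Ct format as a term (-1.52) and in the 3-decimal mice (-1.79), and Nos2 in the luteal phase in the 3-decimal mice (-2.23) and on the linear scale of the authors' fold changes (-0.90). Nos2 in diestrus missed it with wells with no Ct left missing (-1.13), in the 3-decimal mice and without mice 31 to 34 (-3.37 in both), and on the linear scale (-1.09). Nos2 in proestrus passed with a Ct of 36 or 35, left missing or as log2 of the fold changes (all -1.74), and on the linear scale (-1.07). Nos2 in estrus passed with a Ct limit of 35 or left missing (-1.53). In estrus the 6-decimal mice were only FA replicate 1 and O3 replicate 2. Between them Nos2 differed by -2.33 and Ptgs2 by 1.55, and no call is read from this. Ptgs2 in diestrus passed with the Ct format as a term (1.53), and in metestrus it did not on the linear scale (3.62). The Nos2 interaction of exposure and phase turned negative with a Ct of 36 (-0.21), a limit of 35 (-0.38), left missing (-0.75) and as log2 (-0.21) or linear fold changes (-0.063). The O3 correlation was 0.43 with the well left missing and -0.29 without the 2 far mice. Beyond the assigned value itself, the cause was not tested. Nos2 was measured late, at up to 32.9 cycles, and a Ct is less precise at low expression.

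Without each mouse in turn, Nos2 ranged from -1.95 to -1.59 in proestrus and from -1.95 to -1.22 in estrus (each past the threshold only without O3 diestrus replicate 2), from -4.80 to -1.13 in diestrus (lost without that mouse), from -1.80 to -1.59 in the follicular phase (lost in 9 of 34 fits), from -2.45 to -0.91 in the luteal phase (to -0.74 with the well also left missing) and from -0.75 to 0.79 in the interaction. Nos2 in metestrus ranged from -1.05 to -0.30. Ptgs2 ranged from 2.06 to 2.47 in metestrus and, never past the threshold, from 0.47 to 1.52 in diestrus. The wells called over the mean of 4 stages numbered 28, but 18 with H2 alone and 17 on the linear scale; in the follicular phase 19, but 10 with H2 and 30 with the array mean; in the luteal phase 18, but 6 with H2, 9 with H3, 3 on the linear scale and 29 without mice 31 to 34. For the interaction of exposure and phase, 0 wells were called, but 4 with a Ct limit of 35 and 2 on the linear scale. A Ct of 36, log2 fold changes and the array mean gave 1 each. By stage 0 were called, but 1 on the linear scale and 1 without FA diestrus replicate 3. Neither gene was among them. Replicate numbers did not pair the mice: r of same-numbered mice of a stage ran from -0.42 to 0.57 over 14 pairs, 4 of which correlated best with their own number. With the replicate block, Ptgs2 over the mean of 4 stages was 2.09, Nos2 was -2.05, 26 wells were called, and no call of either gene changed.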
